A study of Homo sapiens with 15 samples.

Results

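H3K4me3, trimethylation of lysine 4 on histone H3, was compared between BrM2 and parental MDA-MB-231 (Par) cells at the promoters of protein-coding genes. MDA-MB-231 is a triple-negative, claudin-low human breast cancer cell line, and BrM2 and LM2 are sub-populations of it that were enriched in mice for colonization of the brain and of the lung. All lines were grown in culture without a drug or genetic treatment, so the groups differ in their history of selection, and each line is 1 population sampled in 2 biological replicates. The comparison used 2 BrM2 and 2 Par libraries of the 15 libraries in the series, with the 2 LM2 H3K4me3 libraries in the same model and the 6 H3K27ac libraries as a second readout. The authors merged libraries to call 22572 H3K4me3 peaks, and 13233 of these (58.6%) lay within 2 kb of the start of a protein-coding GENCODE transcript on hg19. These promoter peaks were linked to 13716 genes. A gene was counted as gained when at least 1 of its promoter peaks was called higher in BrM2 and none lower, and as lost in the reverse case.

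H3K4me3 is deposited around the start sites of active and poised genes, mostly at CpG-rich promoters, by the SET1 and MLL methyltransferase complexes. H3K27ac, acetylation of lysine 27 on the same histone, marks active promoters and enhancers, so both marks usually meet at a promoter in use. A ChIP-seq count measures how much chromatin carrying the mark was recovered from a region, and it scales with the number of copies of that region in the cells as well as with the mark on each copy.

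The total count over H3K4me3 peaks ranged from 3489607 to 8069529 in the 4 Par and BrM2 libraries, and replicate 1 was shallower than replicate 2 in every line. Counts below are normalized by median-of-ratios size factors, and log2 fold changes are BrM2 over Par with the standard error (SE) of the DESeq2 fit. The promoters of all 6 claudin-low or mesenchymal markers (VIM, CD44, AXL, CAV1, ZEB1 and FN1) carried a peak, and none of the 6 was called different (adjusted p from 0.228 to 0.996). No promoter peak was present at the immune markers PTPRC and CD3E, at the endothelial markers PECAM1, CDH5 and VWF, or at the glial and neuronal markers GFAP, OLIG2 and NEFL. The remaining endothelial marker, KDR, carried a peak with 80.8 and 104 counts in Par and 75.1 and 79.7 in BrM2. It was not called different by DESeq2 (adjusted p = 0.996).

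In BrM2, 276 promoter peaks were higher than in Par and 116 were lower by DESeq2 (adjusted p under 0.05), which is 2.09% and 0.879% of the 13190 promoter peaks given an adjusted p. Over all peaks the shares were 2.82% higher and 0.791% lower. At gene level, 278 genes gained a promoter (2.03% of 13690 tested) and 123 lost one (0.898%). One gene, SEMA6B, a semaphorin with a role in axon guidance, had a promoter peak in each direction, with log2 fold changes of 2.06 ± 0.61 and -1.42 ± 0.34 (SE). Gains made up 70.4% of the called promoter peaks and 85.5% of the called peaks away from promoters. Every called promoter peak had Par and BrM2 libraries that did not overlap, as did 36.1% of all promoter peaks.

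**Figure D1:**
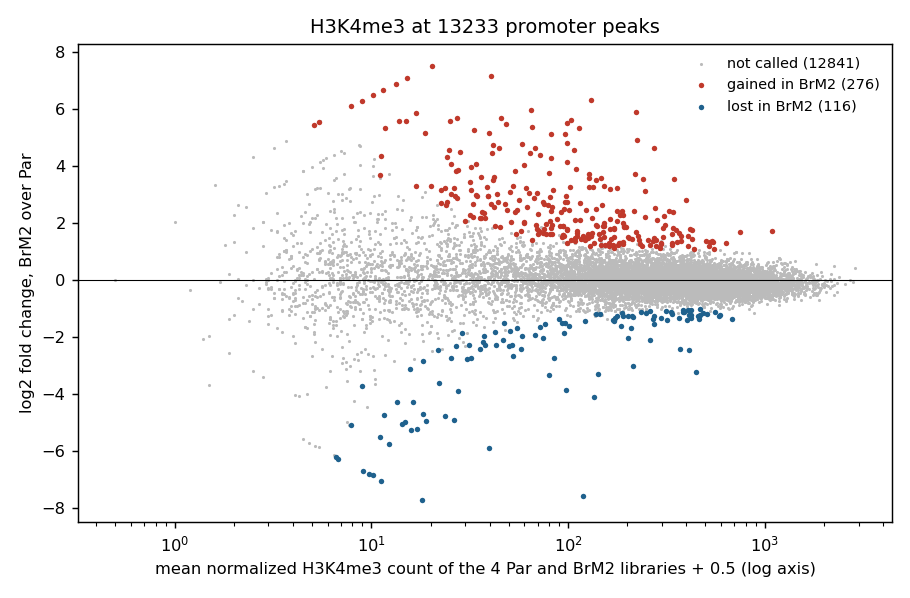
Log2 fold change of H3K4me3 in BrM2 over Par against the mean normalized count of the 4 libraries (plus 0.5, log axis), with 1 point per promoter peak and colours for the 276 gained and 116 lost peaks. The gains outnumber the losses, and both lie mostly at promoters with lower counts than the bulk of the peaks.

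The gained promoters were weak in Par. Their median normalized count was 31.3 in Par and 168 in BrM2, whereas promoter peaks that were not called had a median of 340 in Par. The median log2 fold change of the gained peaks was 2.26, or 2.19 with the 9 peaks that had no read in Par set to a floor of 3 counts per library, and 157 of the 276 exceeded 4-fold. The lost promoters fell from a median of 148 in Par to 35.8 in BrM2, with a median log2 fold change of -1.92, and 55 of the 116 exceeded 4-fold. No call was smaller than 2-fold in either direction. The gained peaks were also narrower (median 1765 bp) than uncalled promoter peaks (2251 bp), as were the lost ones (1676 bp). These levels and widths partly follow from the call itself, since peaks of low count can pass only with a large change.

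The counts depended on how the replicates entered the model. The sample titles number the replicates but name no batch shared across lines. Same-numbered libraries deviated alike from their line means (r = 0.79 to 0.84). Replicate 1 was also the shallower H3K4me3 library in every line, so pairing and depth cannot be told apart. With replicate as a block, 1238 genes gained (9.04%) and 2014 genes lost (14.7%) a promoter. Gains thereby fell from 69.3% to 38.1% of the genes called. Of the peaks called without the block, 275 of 276 gains and 115 of 116 losses were called in the same direction with it. Leaving out any 1 of the 4 Par and BrM2 libraries lowered the counts to between 113 and 139 gained genes and between 25 and 38 lost genes.

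Among called promoter peaks with a mean count of at least 50 over the Par and BrM2 libraries, PLCB4 had the largest gain (log2 fold change 6.29). PLCB4, a phospholipase C that cleaves membrane phosphoinositides downstream of G proteins, had 3.67 and 3.08 normalized counts in the Par libraries and 297 and 219 in BrM2. The LM2 libraries held 4.57 and 9, so BrM2 alone was high, and it exceeded LM2 by a log2 difference of 5.11 ± 0.55 (adjusted p = 2.17e-17). NRK, a kinase of the germinal centre kinase family, rose from 0.00 and 3.08 to 111 and 144 (log2 fold change 5.95 ± 0.91, adjusted p = 2.10e-08). AMPH encodes amphiphysin, which acts in synaptic vesicle endocytosis. It had 5.51 and 8.48 counts in Par and 525 and 345 in BrM2, and the LM2 libraries with 346 and 244 were not called different from BrM2 (log2 difference 0.56, adjusted p = 0.701, or 0.0341 with replicate as a block). AFF3, a scaffold protein of transcription elongation complexes, had the smallest adjusted p of all promoter peaks (3.38e-24) with 18.4 and 12.3 in Par against 418 and 447 in BrM2. ENG, the TGF-beta co-receptor endoglin, rose from 0.00 and 4.62 to 132 and 123. LM2 was also high at AFF3 (265 and 262) and ENG (77.8 and 95.3). The direct test called neither different from BrM2 (adjusted p = 0.385 and 0.814, or 0.00166 and 0.247 with replicate as a block).

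Several large gains were, like PLCB4, high in BrM2 but at the Par level in LM2. KIRREL3, an immunoglobulin-like adhesion protein of synapses, had 150 and 253 counts in BrM2, whereas Par had 1.84 and 5.39 and LM2 had 1.52 and 6.88. The same held for TSPOAP1, a presynaptic RIM-binding protein whose gained peak lay 1470 bp from the nearest start. EPB41L3, a membrane-skeleton linker, had 174 and 201 in BrM2 and at most 6.10 in any Par or LM2 library. NRXN3, a presynaptic neurexin, the zinc finger gene ZNF257 and PREX2, an exchange factor for Rac, followed the same pattern, each with a log2 difference between BrM2 and LM2 of 5.28 to 5.42. KCNN2, a calcium-activated potassium channel, had 11 and 28.5 counts in Par, against 16.8 and 20.6 for LM2 and 598 and 457 for BrM2 (log2 difference from LM2 4.79 ± 0.45, adjusted p = 8.21e-23). The difference between BrM2 and LM2 was tested directly, and it was called at 2.46% of all promoter peaks. DSCAM, a neuronal adhesion molecule, lay between these patterns, where Par had 7.35 and 4.62, LM2 had 41.2 and 48.2 and BrM2 had 254 and 187.

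Among the gains with the next smallest p values, ROBO2, a receptor for Slit guidance cues, rose from 18.4 and 26.2 to 294 and 248, and FBXL7, an F-box protein, from 20.2 and 23.9 to 262 and 250. Both were also high in LM2, at 162 and 135 for ROBO2 and 406 and 274 for FBXL7. LRATD1 rose from 51.4 and 57.0 to 765 and 514, and L3MBTL4, a chromatin reader with MBT repeats, from 55.1 and 47.0 to 505 and 377. ITGB2 encodes the beta-2 integrin subunit known from leukocytes. Par had 33.1 and 43.2 counts there, LM2 had 13.7 and 22.8 and BrM2 had 423 and 466, and the 1 immune marker of 4 with a promoter peak, CD68, had 5.51 and 13.1 in Par and 18.5 and 48.5 in BrM2 without being called (adjusted p = 0.377).

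Among called promoter peaks with a mean count of at least 50, the largest loss lay at KLF14, a Krüppel-like transcription factor, with 290 and 181 normalized counts in Par and 0.00 and 1.87 in BrM2. BrM2 held 3 reads there in all, so the ratio of Par to BrM2 was 168 with a 95% counting interval from 57.1 to 819, and LM2 was intermediate at 18.3 and 34.9. IFITM10 fell from 178 and 332 to 11.9 and 16.8, and IRX1, an Iroquois homeobox factor, from 272 and 244 to 19.8 and 30.5. LM2 had 200 and 269 at IFITM10 and 407 and 364 at IRX1, and the direct test called both, with a log2 difference of BrM2 minus LM2 of -3.89 ± 0.39 at IRX1. A peak at the start of SCNN1A, the alpha subunit of the epithelial sodium channel, fell from 171 and 192 to 10.5 and 13.7, with 10.7 and 26.5 in LM2. This peak is also within 2 kb of an LTBR transcript start, and each gene had a further promoter peak that was not called, with log2 fold changes of 0.18 ± 0.44 at SCNN1A (adjusted p = 0.996) and 0.64 ± 0.39 at LTBR (adjusted p = 0.659). STMN3, a microtubule-destabilizing stathmin, lost 1 promoter peak (123 and 169 to 9.23 and 18.1) and had a second peak with 367 and 421 in Par and 324 and 357 in BrM2.

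Other large losses were of mixed function. KRT7, a keratin of simple epithelia, fell from 731 and 657 to 121 and 129, with 200 and 228 in LM2. CLDN4, a tight junction claudin, fell from 279 and 369 to 58.0 and 97.7, and LM2 was lower still at 18.3 and 38.6 (adjusted p = 0.0749 for the difference from BrM2, or 7.71e-05 with replicate as a block). The 7 epithelial markers as a class were not lower in sum. Their summed counts were 585 and 619 in Par and 1075 and 952 in BrM2, and only CLDN7 was called, as higher (175 and 171 to 471 and 371), a call lost without any 1 of the Par and BrM2 libraries (highest adjusted p 0.352). TNFSF10, which encodes the death ligand TRAIL, fell from 151 and 144 to 21.1 and 22.4. SLC13A3, a dicarboxylate transporter, fell from 73.5 and 120 to 10.5 and 24.3, with 7.62 and 14.8 in LM2. SORCS2, a sorting receptor of neurons, fell from 397 and 449 to 67.2 and 127, with 563 and 498 in LM2. NEK10, SLC12A8, KDM5C, MAP1LC3A and TMSB4X completed the losses with the strongest evidence. Part of these calls were lost with 1 Par or BrM2 library left out, which leaves 1 library in that line. With 1 of the 6 libraries left out, the log2 fold change ran from -1.46 to -1.22 at TMSB4X and from -3.5 to -2.22 at NEK10. NEK10 and TMSB4X lost their calls without Par replicate 1, Par replicate 2 or BrM2 replicate 1. SLC13A3, CLDN4 and KDM5C lost theirs without Par replicate 2 or BrM2 replicate 1. MAP1LC3A lost its call without Par replicate 1 or BrM2 replicate 2 and SLC12A8 without BrM2 replicate 2, and the highest adjusted p in these fits ran from 0.0996 at NEK10 to 0.443 at SLC13A3.

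**Figure D2:**
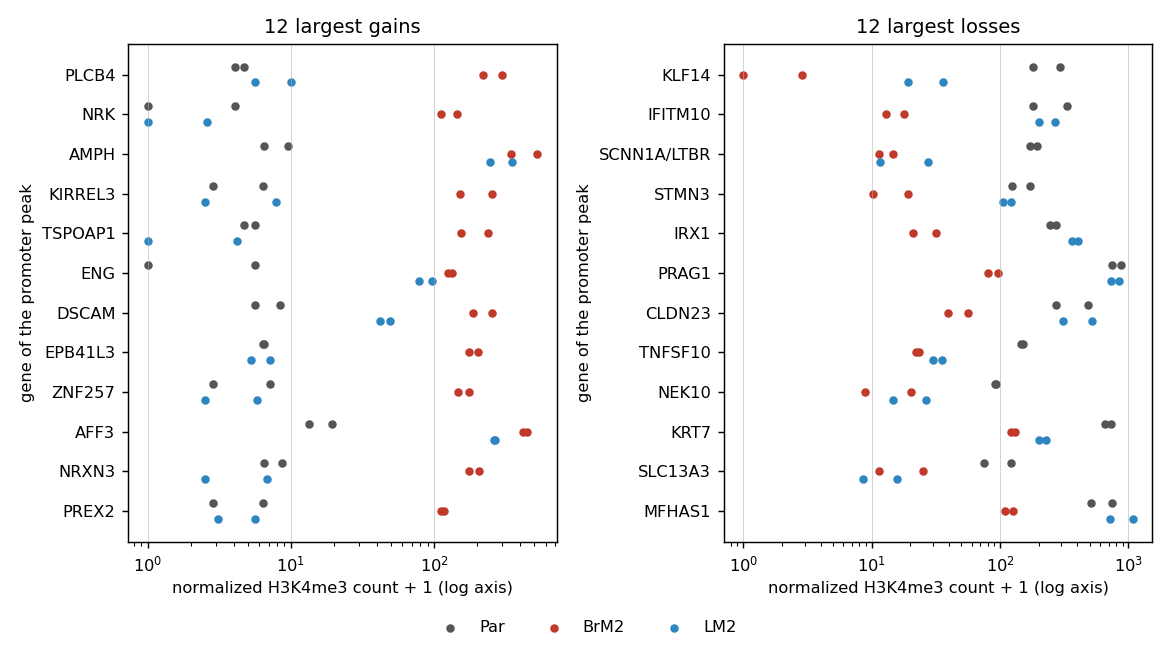
Normalized H3K4me3 counts plus 1 (log axis) at the promoter peaks of the 12 largest gains and the 12 largest losses with a mean count of at least 50, with 1 point per library for Par, BrM2 and LM2. BrM2 and Par points do not overlap at any of the 24 genes, whereas LM2 lies near Par at some genes (KIRREL3, IRX1) and near BrM2 at others (AMPH, TNFSF10).

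The gained promoters were poorer in CpG dinucleotides than the uncalled ones, whereas the lost ones lay close to the uncalled. The sequences of 3 called promoters are printed as examples. In windows from 250 bases before to 50 after the start, the ratio of observed to expected CpG dinucleotides had a median of 0.73 at the 276 gained promoters, 0.82 at the 116 lost ones and 0.85 at the 12798 uncalled ones, and it was below 0.6 at 30.4%, 14.7% and 14.7% of them. GC content differed less, with medians of 65.8%, 69.0% and 67.0%. The sequences give the 250 bases upstream of the start (hg19), 5′ to 3′ on the strand of the gene, with CpG dinucleotides in capitals. They come from KCNN2 (chr5:113697517-113697766, plus strand) and ITGB2 (chr21:46334199-46334448, minus) among the gains, and from KLF14 (chr7:130418968-130419217, minus) among the losses.
KCNN2: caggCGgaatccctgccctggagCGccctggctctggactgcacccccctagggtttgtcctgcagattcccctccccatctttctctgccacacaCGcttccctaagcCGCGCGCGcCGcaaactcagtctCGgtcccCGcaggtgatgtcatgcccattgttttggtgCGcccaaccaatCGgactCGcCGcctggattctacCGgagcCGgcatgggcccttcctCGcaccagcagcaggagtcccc
ITGB2: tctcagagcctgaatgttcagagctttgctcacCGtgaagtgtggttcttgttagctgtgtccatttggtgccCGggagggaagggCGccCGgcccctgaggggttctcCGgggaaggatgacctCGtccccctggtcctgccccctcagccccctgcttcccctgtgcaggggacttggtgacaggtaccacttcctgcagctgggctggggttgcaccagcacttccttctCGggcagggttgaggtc
KLF14: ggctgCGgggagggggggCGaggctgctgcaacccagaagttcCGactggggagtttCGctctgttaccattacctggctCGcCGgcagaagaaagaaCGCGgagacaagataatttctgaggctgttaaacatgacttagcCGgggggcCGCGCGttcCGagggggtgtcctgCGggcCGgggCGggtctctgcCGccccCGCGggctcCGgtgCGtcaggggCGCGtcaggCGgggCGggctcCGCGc

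KCNN2 held 17 CpG dinucleotides in these 250 bases and ITGB2 7, both gained, and KLF14, which was lost, held 27. They are single examples and do not stand for their classes. Searching both strands of the 300-base windows, the GC box GGGCGG was found at 63.8% of gained, 79.3% of lost and 74.6% of all promoters, and the ETS motif CCGGAAG at 6.52%, 12.1% and 17.2%. The E-box CACGTG was found at 2.54%, 10.3% and 9.45%, and the CCAAT box (letters CCAAT) at 26.8%, 27.6% and 34.2%. The AP-1 motif TGANTCA (5.80%, 5.17% and 4.59%) and the forkhead motif TGTTTAC (2.17%, 0.862% and 1.95%) were rare in all 3 classes. No motif in this set contains another, and the GC box and ETS motif carry a CpG themselves, as does the E-box.

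Gained genes were long and lay in sparse neighbourhoods. Their median length from gene start to end was 109 kb, against 43.2 kb for lost genes and 34.4 kb for all genes with a promoter peak. Genes over 200 kb made up 37.4% of the gained (104 of 278), 17.9% of the lost and 8.39% of all. Within 2.5 Mb on either side, a gained promoter had a median of 20 other H3K4me3 peaks with a mean count of at least 50, a lost one 22 and any promoter 31.

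In most genes the called peak was the only promoter peak, which held for 219 of the 278 gained and 98 of the 123 lost genes. Over all 13716 genes with a promoter peak, 1341 had 2 or more, so several promoter peaks were more common among the called genes. Among the called genes with several promoter peaks, 39 gained and 20 lost genes had a second one that was not called and had a mean count of at least 50. DST, a cytoskeletal linker, gained a peak with 3.67 and 10.8 counts in Par and 116 and 195 in BrM2, while its peak at the most marked start had 1446 and 1001 in Par and 973 and 779 in BrM2. MITF, a transcription factor with several promoters, gained a peak with 14.7 and 30.1 in Par and 91.0 and 101 in BrM2, while another of its starts had 641 and 419 against 510 and 379. PHGDH, the first enzyme of serine synthesis, gained a start with 31.2 and 33.1 in Par and 153 and 131 in BrM2, beside a transcript start with 739 and 579 against 738 and 598. RUNX2, a transcription factor of bone formation, lost a weak start (16.5 and 30.1 to 0.00 and 0.622) beside a peak with 1756 and 1708 in Par and 1152 and 1261 in BrM2. SLC2A3, a glucose transporter, lost a peak (86.3 and 67.8 to 1.32 and 1.24) beside one that was not called (279 and 259 to 119 and 162). These second starts were picked after their values were seen, as examples of the class.

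Of the gene lists, the homophilic adhesion molecules had the highest share of gained promoters. These proteins bind the same protein on a neighbouring cell, and in neurons they guide contacts between axons, dendrites and synapses. Of 42 such genes tested, 14 gained a promoter (33.3%, against 2.03% of all genes) and none lost one by DESeq2, by edgeR or at an unadjusted p under 0.05, and the median log2 fold change at the strongest promoter of each gene was 0.81 against -0.08 over all genes. The 14 were CADM2, CDH10, CDH12, CDH18, CHL1, CNTN1, CNTN5, DSCAM, KIRREL3, PCDH17, PCDH20, TENM1, TENM2 and TENM3, and with the replicate block 19 gained and 3 lost. The lists were chosen with earlier results of these data known, and the paper had already reported homophilic adhesion for BrM2 promoters. The 33.3% share therefore describes the list and is not a test of it. Other lists of adhesion genes had lower shares, with 1 of 15 integrins gained, 1 gained and 3 lost of 18 claudins and tight junction genes, and 1 gained and 1 lost of 15 clustered protocadherins. The teneurin TENM3 rose from 20.2 and 29.3 to 198 and 288 and TENM1 from 3.67 and 8.48 to 88.3 and 186. The cadherins CDH18, CDH12 and CDH10 follow each other on chromosome 5 between 19.9 and 24.7 Mb and were near 0 in Par. CDH12 had no read in either Par library and 25 and 26.1 normalized counts in BrM2, at least 6.54-fold higher with Par at a floor of 3 counts per library, and CDH10 with 17.1 and 16.8 was at least 4.34-fold higher. At CDH18 the Par libraries had 0.00 and 0.771, LM2 had 3.05 and 7.41 and BrM2 had 21.1 and 43.6. The CDH18 call was lost without Par replicate 1 or 2, and it had no adjusted p without BrM2 replicate 2. With 1 of the 6 libraries left out, its log2 fold change ran from 5.27 to 6.59.

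The list overlaps in content with neuronal genes, whose lists had larger shares gained than genes as a whole. Axon guidance ligands and receptors gained 7 of 63 promoters (11.1%), namely EPHA6, EPHA7, NTN1, PLXNC1, ROBO1, ROBO2 and ROBO4, with none lost by DESeq2 (1 by edgeR, 2 at an unadjusted p under 0.05) and SEMA6B in both directions. With the replicate block 12 gained and 8 lost a promoter. EPHA7, an ephrin receptor, rose from 105 and 109 to 587 and 426 and exceeded LM2 (162 and 200, adjusted p = 0.00153). ROBO1 rose from 200 and 212 to 689 and 518, with 714 and 476 in LM2, and its call was lost without Par replicate 1, Par replicate 2 or BrM2 replicate 1 (highest adjusted p 0.124). Voltage-gated and potassium channels gained 7 of 69 (10.1%), including KCNN2, KCNQ3 and KCNB2. KCNQ3, a subunit of the M-current channel, rose from 73.5 and 63.2 to 385 and 342, with 366 and 375 in LM2. Synaptic vesicle and adhesion genes gained 4 of 41 (9.76%), and none of the 69 channel or 41 synaptic genes was lost by DESeq2 without the block or by edgeR (1 and 2 at an unadjusted p under 0.05). With the replicate block, DESeq2 called 16 channel genes gained and 3 lost, and 9 synaptic genes gained and 5 lost. Of the 5 glial or neuronal markers, SYP and SNAP25 had a promoter peak, their summed counts were 18.3 and 28.5 in Par and 7.91 and 17.4 in BrM2, and neither was called.

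Nuclear receptors gained 4 of 35 promoters (11.4%) with none lost by DESeq2 without the block or by edgeR (1 at an unadjusted p under 0.05), and 8 gained and 5 lost with the replicate block. RORA, a receptor of the retinoid-related orphan family, rose from 90.0 and 66.3 to 297 and 307 at 1 of its starts. ESR1, the estrogen receptor, rose from 44.1 and 37.0 to 146 and 101, and FOXA1, a forkhead pioneer factor of luminal cells, from 141 and 151 to 456 and 345. LM2 was also high at ESR1 (262 and 200) and FOXA1 (306 and 313). ESR1 and FOXA1 are luminal markers. Of other luminal markers, GATA3 was not called and TFF1 and TFF3 had no promoter peak. The ESR1 and FOXA1 calls were lost without Par replicate 1, Par replicate 2 or BrM2 replicate 1 (highest adjusted p 0.328 and 0.173).

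Other developmental transcription factors gained 7 of 67 (10.4%) and lost 2, IRX1 and IRX2, which neighbour each other on chromosome 5. IRX2 fell from 80.8 and 37.8 to 14.5 and 14.9 in BrM2 while LM2 stood at 390 and 296, a log2 difference of BrM2 minus LM2 of -4.54 (adjusted p = 2.05e-17). Its call against Par was lost without Par replicate 1, BrM2 replicate 1 or BrM2 replicate 2 (highest adjusted p 0.404). Phospholipase C genes gained 2 of 14, PLCB4 and its chromosome 20 neighbour PLCB1, which rose from 22 and 17.7 to 206 and 162 with 396 and 265 in LM2. Claudins and tight junction genes lost 3 of 18 (CLDN4, CLDN11 and CLDN23) and gained CLDN7, which rose from 175 and 171 to 471 and 371. The CLDN7 and CLDN11 calls were each lost without any 1 of the 4 libraries (highest adjusted p 0.352 and 0.353).

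Some genes known from metastasis were called. Of 19 brain metastasis genes tested, FSCN1 gained a promoter (5.26%) and SCNN1A and TNFSF10 lost one (10.5%). Of 19 lung metastasis genes, FSCN1, ROBO1 and SPARC gained (15.8%) and EREG lost one (5.26%). Over all genes 2.03% gained and 0.898% lost a promoter. These lists are small and were chosen with earlier results known, so the shares describe them without a test. FSCN1, an actin-bundling protein, rose from 140 and 162 to 571 and 486, with 613 and 491 in LM2. SPARC, a secreted matrix protein, rose from 1.84 and 7.71 to 39.5 and 50.4 in BrM2 but to 218 and 293 in LM2, so that the log2 difference of BrM2 minus LM2 was -2.50 (adjusted p = 2.02e-06). The SPARC call in BrM2 was lost without Par replicate 2 (highest adjusted p 0.118), and the EREG call without any 1 of the 6 libraries. CXCR4, a chemokine receptor of migrating cells, rose from 66.1 and 53.2 to 369 and 265, above LM2 at 73.2 and 88.4 (adjusted p = 4.57e-05). Metalloproteinases gained 3 of 37 and lost 1, ADAM12, or gained 6 and lost 8 with the replicate block. ADAMTS1, a secreted protease of the matrix, rose from 101 and 99.4 to 820 and 566, and ADAM12 fell from 49.6 and 53.2 to 6.59 and 13.7. The ADAM12 call was lost without any 1 of the Par and BrM2 libraries (highest adjusted p 0.570) or without LM2 replicate 2. Among 79 ribosomal protein genes, 36 cell cycle regulators and 27 AP-1 and related factors, no promoter was called by DESeq2 without the block or by edgeR. At an unadjusted p under 0.05, 1 ribosomal protein gene was higher and 1 lower and no gene of the other lists passed, and with the replicate block 16 ribosomal protein genes gained and 6 lost a promoter, as did 3 and 3 cell cycle regulators and 2 and 2 AP-1 and related factors.

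The remaining lists held few calls each without the replicate block, to be set beside 2.03% gained and 0.898% lost over all genes. Clustered protocadherins gained PCDHAC2 and lost PCDHB13 of 15, and glutamate and GABA receptors gained GABRB2 and lost GRIK4 of 18, although edgeR called neither receptor gene (adjusted p 0.0724 and 0.0523). WNT ligands and receptors gained 2 of 30 and lost 1, and WNT5A, a ligand of noncanonical signalling, rose from 182 and 195 to 700 and 583, with 653 and 530 in LM2. TGF-beta, BMP and ID genes gained 2 of 47, among them INHBB, an activin subunit, which rose from 371 and 343 to 1339 and 934. Chemokines and cytokines gained 2 of 32 and lost 1, interferon and antigen presentation genes gained 1 of 51 (IFIT2), HOX genes 1 of 14 (HOXB6), collagens and laminins 1 of 35 (COL11A1), integrins 1 of 15 (ITGB2) and forkhead factors 1 of 28 (FOXA1). Mesenchymal and EMT genes gained 1 of 21 (SPARC) and epithelial identity genes gained 1 and lost 2 of 26. Solute carriers gained 3 of 211 and lost 5, the EGF receptor family lost 1 of 13, serpins and plasminogen genes 1 of 11 and KLF and SP factors 1 of 24 (KLF14). No SOX factor (9 tested), APOBEC gene (6) or cancer-testis antigen (2) was called by DESeq2 without the block or by edgeR, with 1 in each list higher at an unadjusted p under 0.05 and 3, 1 and 1 gained with the block. The block raised the counts in most of these lists in both directions, to 22 gained and 30 lost solute carriers, 9 and 7 TGF-beta, BMP and ID genes, 8 and 6 collagens and laminins, 6 and 6 WNT genes, 5 and 4 epithelial identity genes, and 3 and 6 mesenchymal and EMT genes. The PCDHAC2, GABRB2 and GRIK4 calls were lost without any 1 of the 4 Par and BrM2 libraries. The PCDHB13 call was lost without Par replicate 1, BrM2 replicate 1 or BrM2 replicate 2, and it had no adjusted p without Par replicate 2. The COL11A1 call was lost without Par replicate 1, Par replicate 2 or BrM2 replicate 2, and the IFIT2 call without BrM2 replicate 2. With 1 of the 6 libraries left out, the log2 fold change ran from 2.93 to 3.46 at PCDHAC2, 1.56 to 2.72 at GABRB2 and -1.31 to -0.95 at GRIK4. It ran from -5.89 to -4.54 at PCDHB13, 2.75 to 3.98 at COL11A1 and 3.31 to 4.77 at IFIT2.

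**Figure D3:**
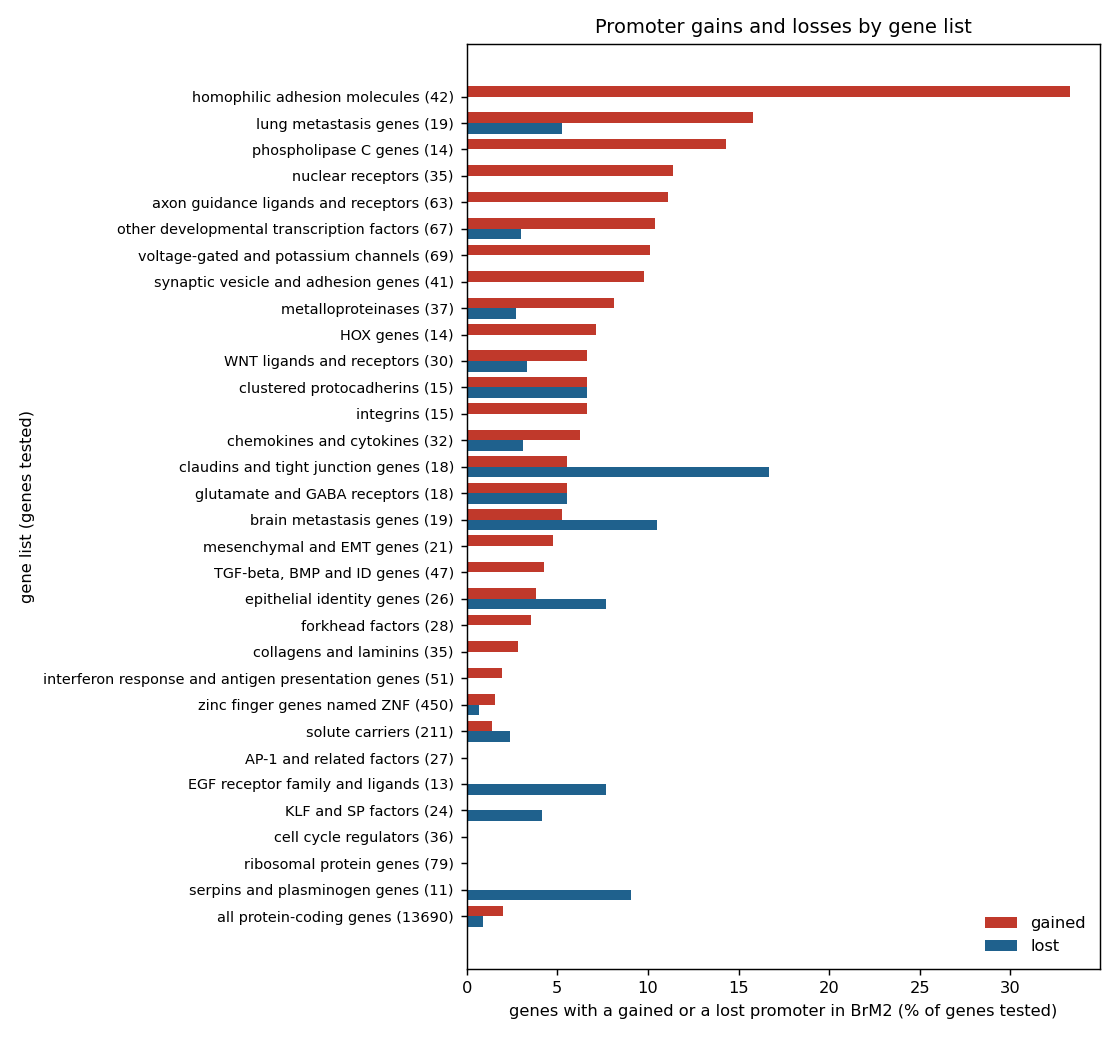
Share of the tested genes of each list with a gained or a lost promoter in BrM2 (bars, % of genes tested), for lists with at least 10 tested genes and for all protein-coding genes at the bottom. The homophilic adhesion molecules stand at 33.3% gained, against 2.03% of all genes, and the claudins and tight junction genes have the highest share lost, 16.7%. The lists were chosen with earlier results of these data known, so the bars describe them without a test.

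H3K27ac, measured in libraries of its own, moved with H3K4me3 at the called promoters. The total count over H3K27ac peaks ranged from 1994996 to 4384701 in the 4 Par and BrM2 libraries. An H3K27ac peak overlapped 205 of the 276 gained promoter peaks, and its log2 fold change was above 0 at 198 of these (96.6%, Wilson 95% interval 93.1 to 98.3), with a median of 1.37. Of the lost promoter peaks 102 had an H3K27ac peak, which was lower in BrM2 at 100 (98.0%, interval 93.1 to 99.5), with a median of -1.21. Over all 12543 promoter peaks with an H3K27ac peak the median was -0.07, and 43.5% were above 0. By DESeq2, H3K27ac was called higher at 71 of 184 gained promoters tested (38.6%, against 1.05% of all promoter peaks tested) and lower at 34 of 96 lost ones (35.4%, against 1.43%), and it was below an unadjusted p of 0.05 in the opposite direction at none. The intervals cover counting of peaks only, and peaks near each other are not independent.

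AFF3 carried 21.8 and 21 normalized H3K27ac counts in Par and 133 and 218 in BrM2 (adjusted p = 6.54e-10), and AMPH 3.48 and 3.00 against 68.2 and 67.5. PRAG1 fell from 86.2 and 138 to 10.7 and 7.71. Some promoters changed in H3K4me3 with little change in H3K27ac. ITGB2 had 202 and 208 H3K27ac counts in Par and 329 and 334 in BrM2 (adjusted p = 0.130), and at SPARC H3K27ac was 168 and 225 in Par and 118 and 166 in BrM2 (adjusted p = 0.539). No H3K27ac peak overlapped 71 gained promoters, among them KCNN2, NRXN3, KIRREL3 and ZNF257, nor 14 lost ones. Of the 14 gained adhesion genes, 4 had an H3K27ac peak at the gained promoter, and all of these had a log2 fold change above 0. Over 11494 promoter peaks with a mean count of at least 50 in H3K4me3, the fold changes of the marks had a Pearson r of 0.70 across peaks, which share their region, copy number and base composition.

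**Figure D4:**
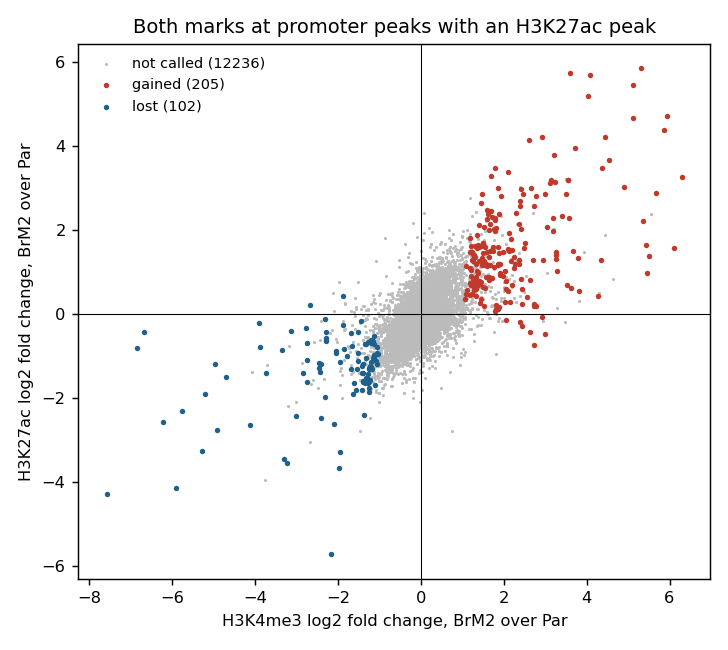
Log2 fold change of H3K27ac against that of H3K4me3, BrM2 over Par, with 1 point per promoter peak that overlaps an H3K27ac peak. Gained promoters (205) lie almost all in the upper right (both marks higher) and lost ones (102) in the lower left.

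The losses, more than the gains, were grouped along chromosomes. Around a lost promoter the other H3K4me3 peaks within 2.5 Mb had a median log2 fold change of -0.35, against -0.06 around a gained promoter and -0.05 around any promoter. The neighbours' median was below -0.5 at 48 of 116 lost promoters (41.4%), against 4.35% of all promoters. Chromosome X held 32 of the lost promoter peaks, 7.14% of its 448, and all 32 lay before the widest gap between X peaks (57.9 to 61.7 Mb). In that segment 152 of 157 promoter peaks with a mean count of at least 50 were below Par, with a median log2 fold change of -0.94 in H3K4me3 and -1.01 in H3K27ac, whereas beyond the gap the medians were -0.09 and -0.12. LM2 over Par had a median of -0.37 in the same segment. The lost genes there included KDM5C and USP9X, TMSB4X (604 and 612 to 218 and 258) and ZBED1 and ASMTL near the chromosome end. Of the 19 gains on X, 16 lay beyond the gap, among them NRK and TENM1.

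On chromosome 8, a stretch from 6.26 to 9.41 Mb held 6 lost promoters (MCPH1, AGPAT5, PRAG1, CLDN23, MFHAS1 and TNKS) and no gain. All 10 H3K4me3 peaks and all 22 H3K27ac peaks in it with a mean count of at least 50 were lower in BrM2. Their median log2 fold changes were -1.22 and -1.89. The ends of this stretch follow from a 3 Mb limit on gaps between called promoters, and the lowering reached further. From -8.06 to 7.155 Mb around PRAG1, every H3K4me3 peak of that count was lower except at 2.162 Mb (0.447). Further peaks called lower lay at -7.75, -7.56, -6.47 and 4.75 Mb. At 8.616 Mb the log2 fold change was -0.024. The lowest values lay at PRAG1 (-3.22), CLDN23 (-3.02) and MFHAS1 (-2.42). PRAG1, which encodes a pseudokinase, fell from 873 and 741 to 94.9 and 79.0, CLDN23 from 487 and 271 to 55.4 and 38.6, and MFHAS1 from 737 and 509 to 125 and 108. LM2 had 843 and 724 at PRAG1, 518 and 307 at CLDN23 and 1083 and 712 at MFHAS1, all above BrM2 in the direct test. The part of copy number in these grouped losses was not tested, since the input libraries were not analysed here. With the median fold change of each chromosome removed, 308 genes gained and 77 lost a promoter, so that gains made up 80% of the genes called, and 275 of 276 gains but 73 of 116 losses kept their call.

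**Figure D5:**
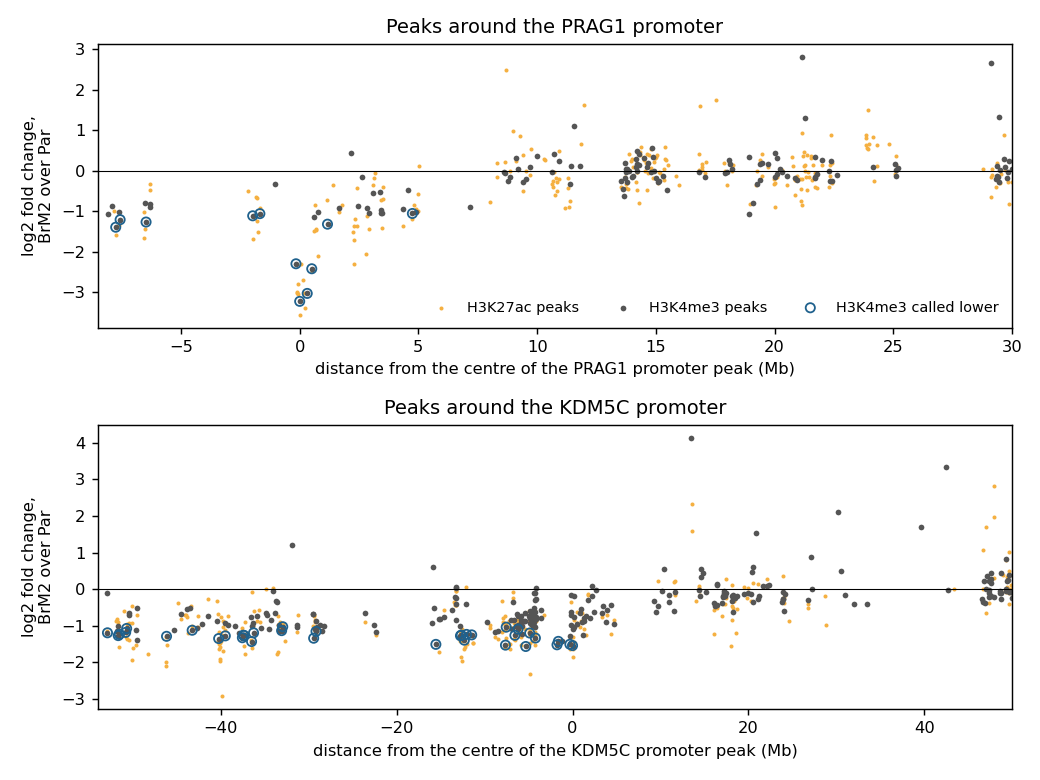
Log2 fold change, BrM2 over Par, of H3K4me3 peaks (grey, circled where called lower) and H3K27ac peaks (orange) against the distance in Mb from the centre of the PRAG1 promoter peak on chromosome 8 (top) and of the KDM5C promoter peak on chromosome X (bottom). Both marks lie mostly below 0 over a stretch of megabases around each promoter and return to near 0 on the right. On the left the lowering of H3K4me3 reaches -8.06 Mb from PRAG1 (-1.055) and -52.906 Mb from KDM5C (-1.194).

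Gains came in smaller groups. Chromosome 18 had the highest share of gained promoter peaks, 15 of 194 (7.73%), followed by chromosome 21 with 8 of 129 (6.20%), and by DESeq2 or edgeR no promoter peak was lower on either (0 and 3 at an unadjusted p under 0.05). On chromosome 18 between 5.54 and 6.42 Mb, 4 gained peaks lay at EPB41L3, TMEM200C and L3MBTL4. On chromosome 19 between 22.2 and 23.3 Mb, the zinc finger genes ZNF257, ZNF98, ZNF492 and ZNF730 all gained a promoter, and ZNF492 rose from 0.00 and 0.771 to 77.8 and 80.9, whereas ZNF genes as a whole gained 7 of 450 (1.56%). NKX2-1, NKX2-8, FOXA1 and TTC6 formed a further group on chromosome 14. Between 17.86 and 19.01 Mb on chromosome 19, 31 of 32 H3K4me3 and 34 of 35 H3K27ac peaks were higher (medians 0.64 and 0.68). That stretch held 4 gains (FCHO1, B3GNT3, ISYNA1 and CERS1). Between 7.98 and 10.63 Mb, also with 4 gains, 41 of 52 and 37 of 44 were higher. Around 4 gains each on chromosomes 11 (98.89 to 105.39 Mb) and 8 (61.19 to 65.71 Mb), the H3K4me3 medians were -0.07 and -0.1. On chromosome 21, ADAMTS1 and its neighbour ADAMTS5 were both gained, the latter from 0.00 and 1.54 to 39.5 and 57.3. The ADAMTS5 and ZNF730 calls were lost without Par replicate 2, and ADAMTS5 had no adjusted p without BrM2 replicate 2. With 1 of the 6 libraries left out, the log2 fold change ran from 4.96 to 7.17 at ADAMTS5 and from 5.02 to 5.38 at ZNF730.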

How the data were processed

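ChIP-seq for H3K4me3 and H3K27ac was done by the authors in Par, LM2 and BrM2 cells, with 2 biological replicates per line and mark. Per the labels, reads were trimmed with Trimmomatic 0.32, aligned to hg19 with Bowtie2 2.3.4.3 and passed through Picard 2.18.21, and peaks were called with MACS2 2.1.2. The authors called broad peaks on merged libraries, counted extended reads per peak with featureCounts and deposited these raw counts. Because peaks were called on merged libraries, a peak can be nearly empty in 1 line.

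The deposited counts were tested with DESeq2 1.42.0 (Wald test, 6 H3K4me3 libraries, line as the factor, Benjamini-Hochberg adjustment over all peaks, threshold 0.05), the test the authors name. The fit has 3 residual degrees of freedom. Alternatives used edgeR 4.0.16 (R 4.3.3) and other scalings, filters and distances. Replicate numbers were checked for pairing: deviations of same-numbered libraries from their line means correlated at r = 0.79 to 0.84 over 13309 peaks in each of the 3 pairs of lines, and replicate 1 was the shallower library throughout. The fit was also run on simulated counts with known changes. The simulation held no effect shared by same-numbered replicates, so it cannot address the dependence on the replicate block.

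Peaks were assigned to genes by transcript starts of 20149 protein-coding genes (GENCODE, lifted to GRCh37, 2 kb). Named genes were the called promoter peaks whose mean count reached 50 and whose Par and BrM2 libraries did not overlap, with the 12 largest fold changes in each direction, then the 6 smallest p values in each, up to 4 called genes per list by p, and CDH18, SPARC and PLCB1. There were 34 lists. The members and lists were chosen with earlier results of these data known. All count columns used belong to labelled samples. Input libraries were not used here. LM2 and BrM2 contrasts share the Par libraries.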

Additional observations from a re-analysis of the deposited data

Results flagged for a closer look

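At 43 of the 86 named promoter peaks the change against Par differed between BrM2 and LM2, by the direct DESeq2 contrast of the metastatic lines in the model of all 6 H3K4me3 libraries (adjusted p under 0.05 over all peaks). Over all promoter peaks this contrast called 2.46%. The 86 peaks were all called in BrM2 against Par, and both contrasts use the same BrM2 libraries, so a high share follows in part from that choice. The values are log2 differences of BrM2 minus LM2.

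BrM2 was higher at NRK (6.82), TSPOAP1 (6.45), LRFN5 (6.43), ZNF300 (5.48), ZNF257 (5.42), NRXN3 (5.42), ZNF492 (5.36), KIRREL3 (5.33), PREX2 (5.28), EPB41L3 (5.28), PLCB4 (5.11), ADAMTS5 (5.07), IFIT2 (4.92), KCNN2 (4.79), LRRTM1/CTNNA2 (4.72), ITGB2 (4.53), COL11A1 (3.27), CACNA2D4 (3.02), LRATD1 (2.75), SLITRK3 (2.43), DSCAM (2.29), ADAMTS1 (2.28), CXCR4 (1.96), L3MBTL4 (1.83), TENM3 (1.83), CLDN7 (1.54), EPHA7 (1.48), EPHA6 (1.32).

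BrM2 was lower at IRX2 (-4.54), KLF14 (-4.49), CLDN11 (-4.07), IFITM10 (-4.0), IRX1 (-3.89), SLC2A3 (-3.68), PRAG1 (-3.18), CLDN23 (-3.15), STMN3 (-2.96), MFHAS1 (-2.94), SLC12A8 (-2.65), SPARC (-2.50), SORCS2 (-2.43), KDM5C (-1.40), EREG (-1.22).

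At SPARC and IRX2, LM2 rose above Par (log2 fold changes 5.50 and 2.58), while BrM2 rose less at SPARC (3.00) and was lower than Par at IRX2 (-1.96).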

How the results depend on the processing

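With 2 libraries per line the counts of calls moved with the settings, and the causes were not tested. With replicate as a block, DESeq2 called 3909 peaks (1892 higher, 2017 lower), 1238 gained and 2014 lost genes, and H3K27ac was higher at 89.8% of the gained promoter peaks. The edgeR quasi-likelihood test with the block called 7512 peaks (3401 higher, 4111 lower), 1913 gained and 3756 lost genes. Requiring at least 10 counts in every library, which tests fewer peaks, left 286 peaks (215 higher, 71 lower), 166 gained and 68 lost genes. An adjusted p under 0.01 left 493 peaks (400 higher, 93 lower) and 66 lost genes, and removing chromosome medians left 77 lost genes. Leaving out 1 of the 6 libraries gave 247 to 720 called peaks, 207 to 562 higher, 32 to 158 lower, 113 to 246 gained genes, 25 to 115 lost genes and H3K27ac lower at 95.7% to 100% of lost promoter peaks. The other alternatives (edgeR without the block, other size factors, Par and BrM2 only, no independent filtering, other distances, gene ends, counts summed per gene) kept these counts within 1.5 times.

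Of the 86 named promoter peaks, none changed direction with the block, edgeR, chromosome medians removed or any 1 library left out, and the replicate block changed no call of BrM2 against Par. In the direct contrast of BrM2 with LM2, the block added 18 calls among them. The edgeR test lost 7 calls and removing chromosome medians 5. Without Par replicate 1 the call was lost at 25, without Par replicate 2 at 29, without BrM2 replicate 1 at 27 and without BrM2 replicate 2 at 22, and 48 kept it, or had no adjusted p, in all 4 fits.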
